A study of Mus musculus with 9 samples.

Results

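The comparison is that of aEpiLC with EpiLC, mouse epiblast-like cells after and before Activin and FGF2 were withdrawn. It takes in 6 of the 9 RNA-seq libraries of the series, 3 of each state, and all genes: 15301 of the 23453 gene symbols in the count table had enough counts to be tested. EpiLCs (epiblast-like cells, a culture model of the early post-implantation epiblast) came from naive embryonic stem cells (ESCs) held for 48 h in N2B27, a serum-free medium, with 1% KSR (a serum replacement), FGF2 and Activin A. The aEpiLCs (anterior epiblast-like cells) were EpiLCs given a further 24 h in N2B27 basal medium with neither factor. The methods state KSR for this medium too. The 3 pEpiLC libraries (posterior epiblast-like cells) had 24 h with Activin and CHIR99021, a GSK3 inhibitor that switches on Wnt signalling, and are used only as context. The cells are called wild-type, and the ESC line behind these libraries is not given in the sources used here. EpiLCs kept for the extra 24 h in Activin and FGF2 were not analysed here, so the loss of the factors and the additional day of culture cannot be told apart. Nothing says that the replicates were separate cultures, so p-values measure the spread between these samples, which may be technical.

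Activin and Nodal are TGF-beta family ligands that signal through SMAD2 and SMAD3. In the epiblast this pathway keeps cells pluripotent, patterns mesendoderm and switches on its own ligand, its co-receptor and its Lefty antagonists. FGF signals through receptor tyrosine kinases and ERK, and works beside Nodal in the primed state. Epiblast cells deprived of both signals are known to take an anterior, neural course by default.

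Values are CPM (a gene's counts relative to the total of its library), scaled for library size and composition. Total counts lay between 20665044 and 23417917 in the 6 libraries, and 3 counts, taken as the limit of detection, equalled 0.131 to 0.141 CPM. This limit covers counting error only. A gene was called higher or lower at an adjusted p below 0.05 (Benjamini-Hochberg, over all genes tested, edgeR's quasi-likelihood test) with a change of at least 2-fold, and "rose" and "fell" are kept for called genes. A number alone in brackets after a gene is its log2 fold change, aEpiLC over EpiLC, and "higher" or "lower by less than 2-fold" means an adjusted p below 0.05 short of a call. Within a state, between 352 and 497 genes differed by over 2-fold between any 2 EpiLC or any 2 aEpiLC libraries. Among pEpiLCs, replicate 1 stood apart: it differed from the others by over 2-fold in 1476 and 1522 genes, against 421 between replicates 2 and 3. The epiblast markers were present in every library, with 1118, 1104 and 1127 CPM of Pou5f1 (OCT4) in the EpiLC replicates and 878, 969.9 and 959 CPM in the aEpiLC replicates. In bulk RNA, fewer cells of a type and less RNA per cell cannot be told apart.

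After 24 h, 1109 genes were called higher in aEpiLCs and 802 lower, or 7.25% and 5.24% of those tested. The change was over 4-fold for 245 of the former and 214 of the latter. Without the limit on fold change, 3676 genes (24%) were higher and 3454 (22.6%) lower at an adjusted p below 0.05. The 3 aEpiLC libraries lay wholly above the EpiLC libraries for 29.8% of the genes and wholly below for 26.3%. These shares are the background for the counts of each list that follows. The median log2 fold change over all genes was 0.00226; the scaling of the libraries sets it near 0. For context, pEpiLCs against EpiLCs gave 7.71% of genes higher and 8.13% lower, and aEpiLCs against pEpiLCs gave 4.74% higher and 2.55% lower.

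**Figure D1:**
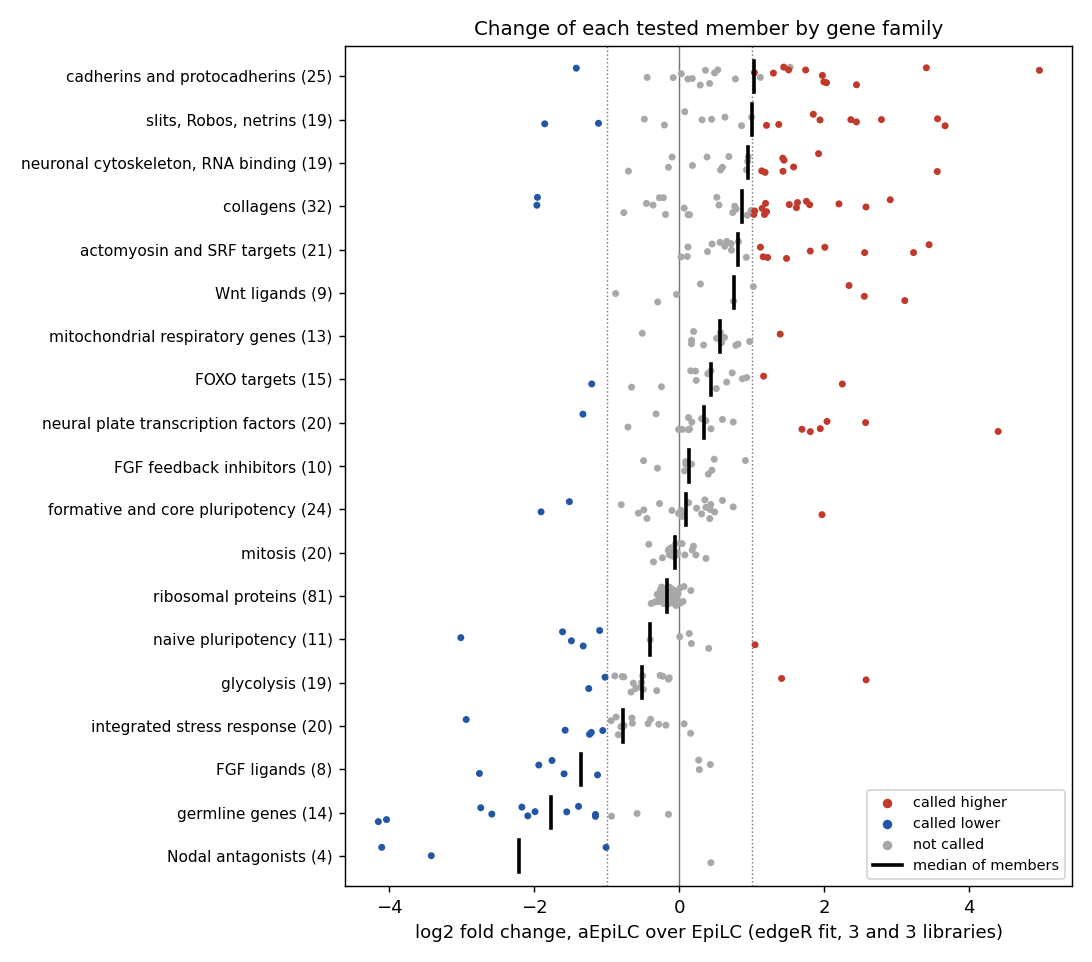
Log2 fold change of each tested member of 19 gene families (x axis, aEpiLC over EpiLC, with the number of tested members beside each name on the y axis). Points are genes, coloured by call, the black bar is the median of the family and the dotted lines mark a 2-fold change. Nodal antagonists (median -2.21), germline genes (-1.77) and FGF ligands (-1.36) lie to the left, and cadherins (1.04), the slit, Robo and netrin genes (1.00) and neuronal cytoskeleton genes (0.95) to the right. Ribosomal proteins and mitotic genes stay within 2-fold.

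In the Nodal and Activin pathway the co-receptor Tdgf1, the Lefty antagonists and the ligand Nodal fell. Of 20 tested members of a list of 25, 7 were called lower and 1 higher, against 5.24% and 7.25% of all genes. The median log2 fold change of the list was -0.38, and over the alternatives it ran from -0.45 to 0.20, the latter with no filter on low counts. Tdgf1 (Cripto), the cell surface co-receptor that Nodal needs (chromosome 9, 110939603 to 110946158), had 188, 189.9 and 205 CPM in the EpiLC replicates and 15.9, 11.2 and 9.52 CPM in the aEpiLC replicates. It fell about 16-fold (log2 fold change -4.01, standard error 0.133, adjusted p = 4.22e-10), and its processed copy Tdgf1-ps1, with which it may share reads, fell alike (-3.98). Of 4 tested antagonists 3 fell. Lefty1 (chromosome 1, 180935022 to 180938400) measured 183, 311 and 242 CPM before and 42.6, 19.99 and 7.22 CPM after withdrawal (log2 fold change -3.42, standard error 0.391, adjusted p = 1.22e-05). Lefty2 (chromosome 1, 180893108 to 180899103) measured 64.1, 89.9 and 83.2 and then 7.93, 3.80 and 2.30 CPM (log2 fold change -4.10, standard error 0.258, adjusted p = 6.11e-08). No aEpiLC library reached an EpiLC library for either gene, but the aEpiLC libraries differed among themselves, with replicate 1 highest and replicate 3 lowest for both. The third, Fstl3, fell at the limit of 2-fold (-1.01) and lost the call under 4 of 14 alternatives. Fst (follistatin), which binds Activin, was higher by less than 2-fold (0.44), with 14.6, 13.1 and 13.2 CPM before, 20.6, 16.6 and 18.8 CPM after and 427, 186 and 174 CPM in pEpiLCs.

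The ligand Nodal fell less, from 56.5, 63.3 and 69.9 CPM to 26.8, 15.9 and 15.9 CPM (log2 fold change -1.71, standard error 0.16, adjusted p = 1.98e-06). The related ligands Gdf3 and Gdf1 were lower by less than 2-fold (log2 fold changes -0.70 and -0.63), and Inhba and Inhbb, the subunits of Activins, did not pass the filter on low counts. Of the receptor genes, Acvr1b and Acvr2a were higher by less than 2-fold (0.22 and 0.53) and Acvr2b overlapped between the states (0.18). Among the transducers, the inhibitory Smad7 fell from 48.6, 38.9 and 38.8 to 10.8, 6.33 and 4.65 CPM (log2 fold change -2.55, standard error 0.208, adjusted p = 5.49e-07), and Pmepa1, a membrane protein that binds SMADs and restrains them, from 14.8, 14.9 and 15.5 to 5.11, 2.26 and 2.48 CPM (log2 fold change -2.22, standard error 0.225, adjusted p = 4.15e-06). Smad3 moved the other way. It had 11.7, 12.5 and 12.8 CPM in EpiLCs and 34.7, 27.1 and 28.1 CPM in aEpiLCs (log2 fold change 1.26, standard error 0.111, adjusted p = 1.18e-06), and pEpiLCs, which had Activin, gave 28.9, 28.3 and 28.97 CPM. Smad2, Smad4 and Foxh1, the DNA-binding partner of SMAD2, differed by less than 2-fold (0.21, 0.50 and -0.36).

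Directly compared, aEpiLCs were below pEpiLCs for Tdgf1 (log2 fold change -4.88, adjusted p = 7.51e-05), Nodal (log2 fold change -2.83, adjusted p = 0.000363) and Pmepa1 (log2 fold change -3.94, adjusted p = 0.000334). In aEpiLC replicate 1 the genes Lefty1, Lefty2, Nodal, Smad7 and Pmepa1 were all at their highest aEpiLC level. What sets that library apart was not tested, and all 5 genes were called when it was left out.

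In the FGF and ERK list, 33 of 35 genes were tested, 2 rose and 5 fell, against 7.25% and 5.24% of all genes. The 5 that fell were ligands. Of 8 tested ligands 5 were called lower and 0 higher, with a median log2 fold change of -1.36, and 3 of 5 with at least 10 counts in every library. Fgf4, the FGF of the inner cell mass and epiblast (chromosome 7, 144847367 to 144865243), had 105, 106 and 87.7 CPM in EpiLCs and 28.3, 32.3 and 40.02 CPM in aEpiLCs (log2 fold change -1.59, standard error 0.111, adjusted p = 1.46e-07). Fgf15 fell from 43.6, 48.03 and 39.9 to 14.1, 15.1 and 10.2 CPM (log2 fold change -1.75, standard error 0.125, adjusted p = 1.69e-07). Fgf8, the streak FGF, was low at the start, with 3.05, 2.65 and 2.39 CPM, and had 0.750, 0.317 and 0.138 CPM in aEpiLCs, where replicate 3 held 3 counts (log2 fold change -2.75, standard error 0.403, adjusted p = 0.000102). Fgf17 fell as well (-1.93), and so did Fgf3 (-1.12, with the call lost under 4 of 13 alternatives). The other 3 ligands were not called. Fgf13 (0.27, adjusted p = 0.0713) and Fgf9 (0.28, adjusted p = 0.609) did not pass the test, and Fgf5, the standard marker of formative epiblast, was at 89.7, 76.4 and 87.4 CPM before and 126, 108 and 110.3 CPM after, higher by less than 2-fold (log2 fold change 0.43, standard error 0.0784, adjusted p = 0.000566).

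Sprouty and DUSP proteins damp ERK signalling and are themselves switched on by it. None of the 10 tested feedback genes was called, and their median log2 fold change was 0.13. Without EpiLC replicate 1, 1 of them was called higher. Dusp6 had 149, 121 and 116 CPM in EpiLCs and 112, 151 and 147 CPM in aEpiLCs, with overlapping groups (log2 fold change 0.08, standard error 0.109, adjusted p = 0.602). Spry4 overlapped too (0.17, adjusted p = 0.304), and Spry2 was higher in all aEpiLC libraries by less than 2-fold (0.91). Of the ERK-induced transcription factors, Etv4 and Etv5 were lower by less than 2-fold (-0.22 and -0.41), Egr1 overlapped between the states (0.07, adjusted p = 0.84) and Egr2 was called higher with overlapping libraries (1.60) and lost the call under 4 of 13 alternatives. Without aEpiLC replicate 1, 4 of 12 of these factors were called higher, and without aEpiLC replicate 2 or 3 none of 11. Among the receptors, Fgfr2 rose from 8.60, 9.45 and 6.27 to 47.3, 48.5 and 40.2 CPM (log2 fold change 2.47, standard error 0.131, adjusted p = 1.3e-08), whereas pEpiLCs had 3.16, 5.26 and 5.77 CPM (log2 fold change 3.27, adjusted p = 0.000165 for aEpiLCs over pEpiLCs). Fgfr1 was higher by less than 2-fold (0.55), and Fgfr4 lower (-0.98). Without EpiLC replicate 1 or 3 or aEpiLC replicate 3, 1 of the 4 receptors was called lower. Fgfbp1, a secreted carrier that frees FGFs from the matrix, had 3.33, 3.03 and 2.48 CPM and then 34.4, 34.6 and 41.9 CPM (log2 fold change 3.64, standard error 0.136, adjusted p = 1.06e-09). This was among the 10 largest rises of called genes with a mean of at least 5 CPM and no overlap of libraries.

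**Figure D2:**
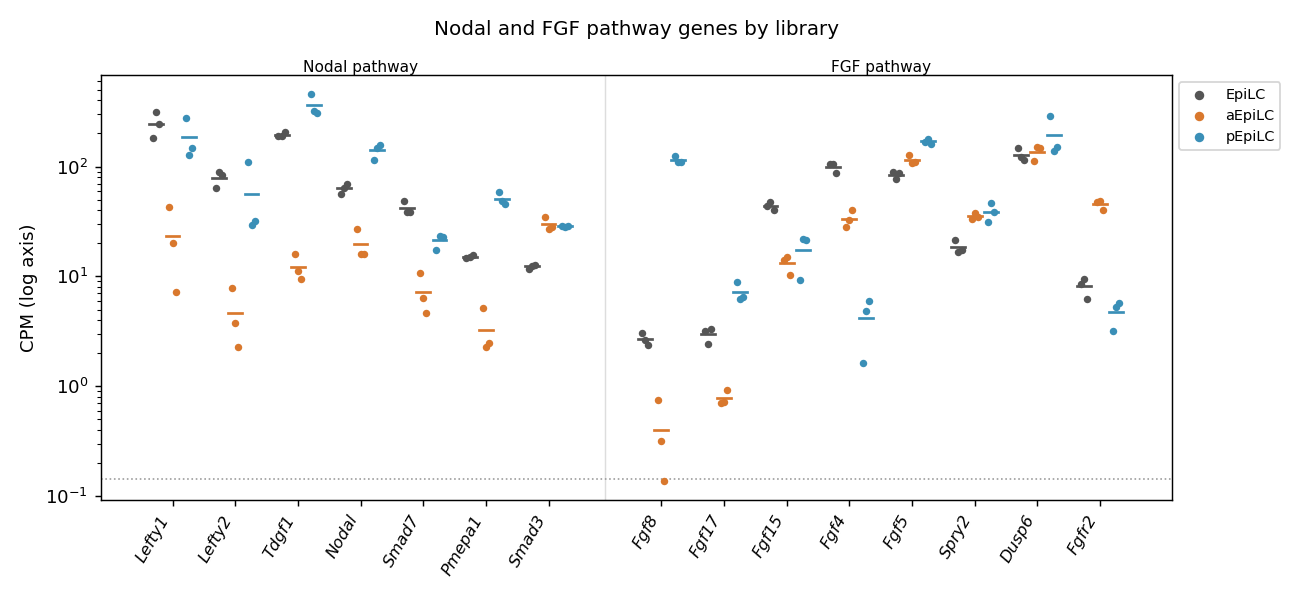
CPM on a log axis (y) of 7 Nodal pathway genes and 8 FGF pathway genes (x) in each library, with a bar at the mean of 3 libraries and a dotted line at 3 counts. The aEpiLC libraries (orange) lie below all EpiLC libraries (grey) for the first 6 genes and for Fgf8, Fgf17, Fgf15 and Fgf4, and above them for Smad3, Fgf5, Spry2 and Fgfr2, while Dusp6 overlaps. The pEpiLC libraries (blue) had Activin.

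The naive pluripotency list, genes of the ESC and inner cell mass, had 11 tested members of 15, of which 5 fell and 1 rose, against 5.24% and 7.25% of all genes. Without EpiLC replicate 2 only 3 fell. Dppa5a fell furthest, from 363, 399 and 383 to 44.5, 46.4 and 52.8 CPM (log2 fold change -3.01, standard error 0.0758, adjusted p = 4.69e-11), followed by Nr0b1 (-1.61), Dppa3 (-1.48, not called without EpiLC replicate 2 or aEpiLC replicate 3), Zfp42 (Rex1, -1.32) and Esrrb (-1.10, not called without EpiLC replicate 2). Klf2 was the member that rose, from 1.25, 1.82 and 1.44 to 3.99, 2.58 and 2.85 CPM (log2 fold change 1.05, standard error 0.256, adjusted p = 0.00441), and it was not called without EpiLC or aEpiLC replicate 1. Klf4 and Nanog gave log2 fold changes of 0.01 and 0.17 (adjusted p = 0.46 for Nanog). Nanog had 17.5, 16.9 and 16.97 CPM in EpiLCs and 26.8, 17.4 and 14.2 CPM in aEpiLCs, so the groups overlapped.

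Of 24 formative, primed and shared pluripotency genes, all of them tested, 1 was called higher and 2 lower, against 7.25% and 5.24% of all genes. Pou5f1 was lower by less than 2-fold (log2 fold change -0.27, standard error 0.0566, adjusted p = 0.00162). Sox2 had 54.7, 64.8 and 60.4 CPM and then 98.4, 101 and 105 CPM, without overlap but short of 2-fold (log2 fold change 0.75, standard error 0.0717, adjusted p = 2.5e-06). Otx2, a transcription factor of the formative state and later of the forebrain, had 90.3, 97.5 and 93.9 and 141, 149 and 141 CPM (log2 fold change 0.60, standard error 0.0602, adjusted p = 3.79e-06). Pou3f1 (OCT6) overlapped, at 226, 189.99 and 191 and 214, 171 and 225 CPM (-0.01), with 10.5, 42.8 and 44.3 CPM in pEpiLCs. The called members were Dppa2, which fell from 70.3, 63.9 and 72.1 to 17.7, 16.96 and 21.1 CPM (-1.90), Tcf15 (-1.51) and Tdh, the threonine dehydrogenase of mouse pluripotent cells, which rose from 17.2, 16.1 and 16.5 to 72.4, 55.6 and 68.8 CPM (log2 fold change 1.97, standard error 0.0992, adjusted p = 8.45e-09).

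Neural plate transcription factors were mostly low. Of a list of 46, 20 had enough counts to be tested, 6 were called higher and 1 lower, against 7.25% and 5.24% of all genes, with a median log2 fold change of 0.34. Beside those described here, Meis2 rose (2.57). Pax6, a paired homeobox factor of the forebrain and spinal cord (chromosome 2, 105668900 to 105697364), had 0.509, 0.512 and 0.653 CPM in EpiLCs, 1.83, 1.99 and 2.16 CPM in aEpiLCs and 1 to 3 counts in each pEpiLC library (log2 fold change 1.81, standard error 0.301, adjusted p = 0.000279). Sox1, the earliest definitive neural marker, did not separate the states, with 1.06, 1.35 and 1.17 CPM before and 0.891, 0.543 and 1.47 CPM after (log2 fold change -0.32, standard error 0.365, adjusted p = 0.503). Sox3 did not either (0.13, adjusted p = 0.414).

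Irx3 and Irx5, homeobox factors of a shared cluster, rose, Irx3 from 2.73, 2.23 and 1.04 to 12.4, 3.71 and 8.74 CPM (2.04) and Irx5 from 0.832, 0.698 and 0.783 to 2.67, 2.17 and 2.76 CPM (1.69). Both calls were lost when all 9 libraries entered 1 fit. Foxb1, a forkhead factor, was at 1 to 5 counts in the EpiLC libraries and at 4.13, 1.94 and 2.99 CPM in aEpiLCs, and Sall3 rose from 1.39, 0.977 and 1.35 to 5.58, 3.62 and 5.34 CPM (1.95). The pEpiLC libraries gave 22.8, 32.3 and 40.05 CPM of Foxb1 and 62.6, 25.6 and 28.5 CPM of Sall3. En2, a midbrain-hindbrain factor, was the list member that fell, from 6.47, 4.89 and 5.35 to 2.63, 1.99 and 2.12 CPM (-1.33). Hesx1, Zic1, Hes5 and Neurog2 did not pass the filter, and the highest value of any of them in the 6 libraries was 0.566 CPM, for Zic1.

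Genes that give neurons their shape were higher too. In a list of 56 neuronal differentiation genes, 45 were tested, 14 rose and 1 fell, against 7.25% and 5.24% of all genes, with a median log2 fold change of 0.69. The lower count was 0 to 2 when 1 replicate was left out. Of its 19 cytoskeletal and RNA-binding members 8 rose and 0 fell, and 16 were higher at an adjusted p below 0.05, against 24% of all genes. Stmn4, a stathmin that regulates microtubules (chromosome 14, 66344296 to 66361680), had 1.34, 1.02 and 1.13 CPM and then 10.7, 15.5 and 15.6 CPM (log2 fold change 3.56, standard error 0.203, adjusted p = 2.25e-08), with 0.192, 0.482 and 0.419 CPM in pEpiLCs. Map2, the dendritic microtubule protein, rose from 10.2, 12.8 and 9.22 to 45.3, 41.6 and 36.1 CPM (log2 fold change 1.92, standard error 0.123, adjusted p = 6.99e-08). Tubb3 was higher in all aEpiLC libraries but just short of 2-fold, at 57.2, 60.5 and 52.3 and 92.4, 115 and 119.5 CPM (0.93). The call was gained without aEpiLC replicate 1, its lowest.

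Dpysl3 (1.58), Stmn3 (1.45), Gap43 (1.43), Stmn2 (1.43) and Dcx (1.19) rose too, and Nefl was lower by less than 2-fold (-0.70). Btbd17, which belongs to the proneural part of the list, rose from 5.32, 5.40 and 5.27 to 37.05, 33.6 and 59.01 CPM (log2 fold change 3.004, standard error 0.192, adjusted p = 6.97e-08), with 1.39, 1.27 and 2.75 CPM in pEpiLCs. Among synaptic and adhesion genes, Syt11 rose from 59.3, 65.8 and 56.5 to 119, 148 and 125 CPM (1.09) and Syt1 from 1.94, 2.28 and 1.39 to 6.003, 5.61 and 4.09 CPM (1.47). Grin1, an NMDA receptor subunit, was called lower with overlapping libraries (0.601, 2.65 and 3.13 and 0.703, 1.18 and 0.552 CPM), and lost the call under 6 of 14 alternatives. Pcsk2, a protease that processes prohormones in neuroendocrine cells (chromosome 2, 143546156 to 143816285), and Svop, a synaptic vesicle transporter, led all genes with a mean of at least 5 CPM. Pcsk2 had 1.39, 1.303 and 1.87 CPM in EpiLCs and 46.1, 41.3 and 41.8 CPM in aEpiLCs (log2 fold change 4.80, standard error 0.134, adjusted p = 9.46e-11). Svop rose from 0.694, 0.931 and 0.653 to 15.6, 9.59 and 10.99 CPM (3.97), and Zeb2, a zinc finger repressor of Cdh1 that acts in neural induction, from 0.879, 0.465 and 1.001 to 13.3, 8.998 and 10.2 CPM (3.76). In pEpiLCs, Svop and Zeb2 had 21.5, 12.8 and 13.3 and 22.8, 13.1 and 11.5 CPM, and Pcsk2 had 1.96, 16.8 and 14.7 CPM.

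Axon guidance genes, which steer growing axons and migrating cells, had 66 tested members of 76, of which 19 rose and 3 fell, against 7.25% and 5.24% of all genes. In pEpiLCs 19 of the 66 were called higher and 5 lower, against 7.71% and 8.13%. Of 19 tested slits, Robos, netrins and their receptors 9 rose and 2 fell, with a median log2 fold change of 1.00. With at least 10 counts in every library, 12 of 56 guidance genes rose, and 4 of 13 in this group. Ntn1 (netrin 1) rose from 0.832, 0.372 and 0.696 to 7.55, 6.96 and 8.42 CPM (log2 fold change 3.56, standard error 0.243, adjusted p = 1.2e-07). Spon1, a secreted matrix protein of the floor plate, rose from 8.28, 6.84 and 6.44 to 45.3, 59.9 and 45.3 CPM (log2 fold change 2.79, standard error 0.131, adjusted p = 5.16e-09) and had 1.15, 2.80 and 1.21 CPM in pEpiLCs. Robo1, a slit receptor, had 31.6, 28.3 and 27.8 and 82.9, 79.3 and 67.7 CPM (1.37). Unc5b, a netrin receptor, fell from 149.9, 164 and 164 to 82.02, 77.5 and 64.4 CPM (log2 fold change -1.11, standard error 0.0833, adjusted p = 2.63e-07).

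Of 20 tested ephrins and Eph receptors 4 rose and 0 fell, among them Epha1 (44.5, 41.1 and 40.3 to 105, 118 and 113 CPM, 1.40) and Efna5 (1.90, 2.05 and 2.18 to 8.91, 7.10 and 7.82 CPM, 1.94). The semaphorin group, with 27 tested, had 6 called higher and 1 lower. Without EpiLC or aEpiLC replicate 1 there were 4 and 2, and without EpiLC replicate 2 there were 6 and 0. Sema6a went from 92.8, 96.5 and 89.7 to 232, 234 and 205 CPM (1.25), Sema3e from 17.9, 13.8 and 16.9 to 61.4, 52.6 and 49.2 CPM (1.73) and Sema3c from 11.6, 13.5 and 9.66 to 30.4, 34.05 and 30.5 CPM (1.44). Potassium, sodium and calcium channel genes, with 85 tested of 124, had 23 called higher and 8 lower, against 7.25% and 5.24% of all genes, or 14 and 3 of 65 with at least 10 counts in every library. The lower count was 4 with 9 libraries in 1 fit, and 5 with DESeq2 or without EpiLC replicate 1 or 3 or aEpiLC replicate 1 or 2. Kcnj3 rose from 19.1, 18.4 and 16.8 to 52.8, 56.6 and 53.03 CPM (1.56).

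Contractile and actin-binding genes were higher after withdrawal. Serum response factor (SRF) binds the CArG box and drives genes for actins, tropomyosins and calponins. Of 21 tested members of this list 9 rose and 0 fell, against 7.25% and 5.24% of all genes. At an adjusted p below 0.05, 18 were higher and none was lower, against 24% and 22.6%, and the median log2 fold change was 0.82. Acta1, skeletal muscle actin (chromosome 8, 123891769 to 123894751), had 2.40, 1.77 and 2.65 CPM in EpiLCs and 17.1, 26.99 and 31.5 CPM in aEpiLCs (log2 fold change 3.45, standard error 0.226, adjusted p = 8.93e-08). Tagln (SM22) (chromosome 9, 45929619 to 45936058) had 12.8, 10.8 and 10.7 CPM before and 74.3, 118 and 132 CPM after (log2 fold change 3.23, standard error 0.178, adjusted p = 1.72e-08). Acta2, smooth muscle actin, rose from 3.19, 2.75 and 4.61 to 14.02, 22.1 and 26.9 CPM (2.56), and Ccn1, a matricellular protein, from 23.96, 20.1 and 20.2 to 59.7, 98.2 and 103 CPM (2.01).

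Cardiac actin, Actc1, is not in the list and rose likewise, from 1.25, 1.49 and 1.001 to 11.5, 16.7 and 22.8 CPM (log2 fold change 3.75, standard error 0.26, adjusted p = 1.31e-07). Tpm1, a tropomyosin of the list, was among the most abundant genes that rose, with 199.98, 195 and 193 and then 384, 446 and 495 CPM (1.16). The cytoplasmic actin Actg1 was higher by less than 2-fold (0.39), and Srf itself did not separate the states (0.12). In aEpiLC replicate 1 Acta1, Acta2, Tagln, Ccn1, Actc1 and Tpm1 were at their lowest aEpiLC level, in the library in which the Nodal targets were highest. All 6 were called when that library was left out, and what sets it apart was not tested. In pEpiLCs Tagln had 16.3, 45.8 and 54.998 CPM.

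Promoters are shown because SRF reads a short sequence, the CArG box, CC and GG around a run of 6 A or T. The 250 bases before the annotated start were searched in RefSeq's promoter table (GRCm38.p6), which held 11260 of the tested genes. Both strands were searched. A CArG box was found in 1.4% of these and in 7 of the 18 list members with an entry, Acta1, Actg1, Cnn2, Fhl2, Myl9, Srf and Vcl. In the windows below, of 3 of these that rose and of Actc1, which is outside the list, capitals mark the box on the strand of the gene.
Acta1, chr8:123894819-123894868 (minus strand): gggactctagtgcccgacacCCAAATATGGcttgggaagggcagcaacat
Actc1, chr2:114052893-114052942 (minus strand): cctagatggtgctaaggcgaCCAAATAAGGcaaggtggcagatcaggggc
Myl9, chr2:156775283-156775332 (plus strand): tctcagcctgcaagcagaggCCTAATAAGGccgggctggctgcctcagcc
Cnn2, chr10:79988524-79988573 (plus strand): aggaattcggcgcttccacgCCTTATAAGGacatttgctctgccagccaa
These boxes begin 73, 47, 161 and 56 bases before the start. Acta1 and Actc1 rose by log2 fold changes of 3.45 and 3.75, and Cnn2 and Myl9 by 1.22 and 1.12. Myl9 was not called without aEpiLC replicate 3. The other 4 list members with a box were not called: Vcl (0.93), Fhl2 (0.72) and Actg1 (0.39) were higher by less than 2-fold, and Srf (0.12) did not pass the test. The list members Acta2, Tagln, Ccn1, Ccn2, Cnn1 and Tpm1 rose but were not among the genes found with a box. They lacked either a box in the window or an entry. The list was drawn up as SRF targets, so its larger share of boxes follows from how it was chosen and says nothing of the rise. A match of letters describes the promoter and is not a site of binding.

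Of 25 tested cadherins and protocadherins 11 rose and 1 fell, against 7.25% and 5.24% of all genes, with a median log2 fold change of 1.04. Of the 12 with at least 10 counts in every library only 2 rose, and with all 9 libraries in 1 fit 6 of 26. The member that fell, Cdh15, lost the call under 5 of 13 alternatives. Over the alternatives the median ran from 0.39 to 1.08. In pEpiLCs 8 of the 25 were called higher and 3 lower, with a median of 0.71, against 7.71% and 8.13% of all genes. Cdh2 (N-cadherin) had 11.7, 10.6 and 15.4 CPM in EpiLCs and 33.4, 28.8 and 31.5 CPM in aEpiLCs (log2 fold change 1.299, standard error 0.127, adjusted p = 2.85e-06). With all 9 libraries in 1 fit it was not called. Cdh1 (E-cadherin) was higher by less than 2-fold, at 847, 885 and 894 and 1065, 1108 and 1073 CPM (0.29). Pcdh18 rose from 5.50, 4.61 and 5.18 to 14.8, 16.5 and 12.8 CPM (1.51). Cdh13 was at or below 3 counts in every EpiLC library and was at least 11.5-fold higher in aEpiLCs. Tight junction genes, 17 tested, had 3 called higher and 1 lower, against 7.25% and 5.24% of all genes. Without aEpiLC replicate 3, 5 of 19 were called higher. Krt8, a keratin of simple epithelia in the surface ectoderm list (3 of 13 called higher, 0 lower), rose from 18.5, 21.3 and 24.2 to 90.98, 104 and 106 CPM (log2 fold change 2.22, standard error 0.096, adjusted p = 3.01e-09). The gap junction gene Gja1 rose from 189, 176 and 169 to 397, 429.7 and 409.8 CPM (1.20).

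Collagens had 14 of 32 tested members called higher and 2 lower, against 7.25% and 5.24% of all genes. In pEpiLCs 14 of the 32 were called higher and 3 lower, against 7.71% and 8.13%. The median log2 fold change was 0.86 in aEpiLCs and 0.97 in pEpiLCs. Several collagen genes encode collagen IV of basement membranes. Col4a1 (chromosome 8, 11198423 to 11312826) had 24.5, 22.5 and 19.4 CPM and then 77.6, 65.3 and 62.97 CPM (log2 fold change 1.62, standard error 0.0995, adjusted p = 4.92e-08), Col4a2, transcribed from the opposite strand beside it, had 6.75, 7.03 and 5.27 and 23.6, 22.7 and 20.6 CPM (1.80), and Col4a5 and Col4a6 rose as well (2.58 and 2.91). Among 31 laminins, integrins and fibronectin genes 7 were called higher and 1 lower in aEpiLCs, against 7.25% and 5.24% of all genes. Without aEpiLC replicate 1 there were 6 and 2. The laminin chain Lama1 rose from 6.66, 5.63 and 6.74 to 22.2, 14.6 and 13.6 CPM (1.39), a call lost with all 9 libraries in 1 fit, and Lama3 fell (-1.46). Fibronectin, Fn1, was lower by less than 2-fold, at 226, 233 and 237 and 150.1, 156 and 118 CPM (-0.73).

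**Figure D3:**
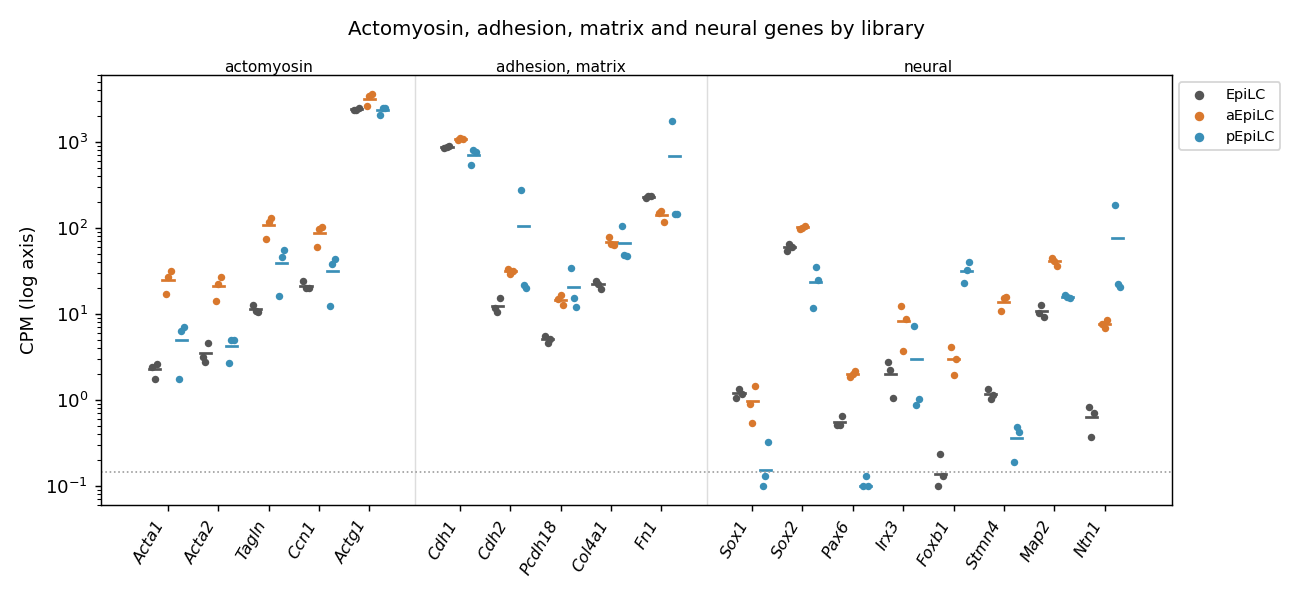
CPM on a log axis (y) of actomyosin, adhesion, matrix and neural genes (x) in each library, with a bar at the mean of 3 libraries and a dotted line at 3 counts. Values under 0.1 CPM are drawn at 0.1. The orange aEpiLC points lie above the grey EpiLC points for every gene except Fn1, which lies below, and Sox1, which overlaps, and the pEpiLC points (blue) are spread widely for Cdh2, Fn1 and Ntn1 by replicate 1.

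Wnt ligands and receptors act through beta-catenin or through cell polarity. Of 38 tested Wnt pathway genes 9 rose and 2 fell, against 7.25% and 5.24% of all genes. With at least 10 counts in every library 4 of 28 rose. Without EpiLC replicate 1, 2 of 11 Wnt targets rose in place of 4. Wnt8a rose from 0.786, 0.977 and 1.001 to 11.4, 6.01 and 6.85 CPM (log2 fold change 3.11, standard error 0.278, adjusted p = 1.32e-06) and was at 75.7, 109 and 117 CPM in pEpiLCs, and Wnt4 rose from 0.231, 0.465 and 0.696 to 1.69, 2.62 and 2.94 CPM (2.34). The feedback gene Axin2 rose from 3.93, 6.52 and 5.79 to 11.96, 12.03 and 10.9 CPM (log2 fold change 1.09, standard error 0.166, adjusted p = 0.000142), not called without EpiLC replicate 1, and Sp8, which responds to Wnt, from 1.16, 1.12 and 1.001 to 7.22, 2.26 and 4.65 CPM (2.09). In pEpiLCs, which had CHIR99021, Axin2 was at 177, 114 and 103 CPM. The receptor Fzd1 rose (3.98, 2.42 and 1.65 to 11.8, 11.5 and 10.3 CPM, 2.05) and Fzd10 fell (7.82, 8.42 and 8.44 to 4.92, 1.94 and 2.48 CPM, -1.42), whereas Fzd10 stood at 114, 43.95 and 47.7 CPM in pEpiLCs (log2 fold change -4.45, adjusted p = 0.00162).

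In the BMP list, 4 of 15 tested rose and 2 fell, against 7.25% and 5.24% of all genes. The median log2 fold change was -0.26 for the list and -0.50 for its 9 tested targets. Of these targets 3 lay wholly above the EpiLC libraries and 5 wholly below, against 29.8% and 26.3% of all genes. Id3, a direct target of BMP signalling, rose from 4.95, 5.72 and 5.27 to 21.5, 17.5 and 15.04 CPM (log2 fold change 1.75, standard error 0.147, adjusted p = 7.77e-07), Id1 from 1.71, 1.63 and 1.74 to 4.78, 2.76 and 3.40 CPM (1.09) and the ligand Bmp7 from 1.57, 1.26 and 1.001 to 7.32, 3.89 and 4.69 CPM (2.04). Id1 was not called without aEpiLC replicate 1 or with all 9 libraries in 1 fit. Without aEpiLC replicate 1 the list had 3 called higher and 4 lower. Smad7, which is shared with the Nodal list, and Smad9 fell (-2.55 and -2.01), and Bmp4 did not pass the test (-0.64, adjusted p = 0.0731). Notch genes, which hold neural progenitors back from differentiation, had 1 of 16 called higher and 1 lower, near the 7.25% and 5.24% of all genes. Notch3 fell from 376, 462 and 378 to 191, 149 and 129 CPM (log2 fold change -1.39, standard error 0.121, adjusted p = 1.02e-06) and Lfng, a glycosyltransferase that modifies Notch, rose from 3.24, 3.91 and 4.39 to 11.9, 12.6 and 14.5 CPM (log2 fold change 1.74, standard error 0.151, adjusted p = 1.01e-06). Hes1 (-0.16) and Dll1 (-0.26) overlapped between the states.

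The retinoic acid list had 14 tested members, 2 higher and 1 lower, against 7.25% and 5.24% of all genes. Crabp2, which carries retinoic acid to the nucleus, rose from 17.3, 16.8 and 17.2 to 38.9, 50.5 and 54.1 CPM (log2 fold change 1.47, standard error 0.111, adjusted p = 2.75e-07). Stra6, a retinol receptor, fell narrowly and lost the call without EpiLC replicate 2 or 3 or aEpiLC replicate 2 (-1.07). The retinoic acid targets Cyp26a1 and Rarb did not pass the filter, and the only Hox gene of 15 that did was not called. Among 10 tested primitive streak and mesoderm genes 2 were called higher and 3 lower, against 7.25% and 5.24% of all genes. With 9 libraries in 1 fit none was called higher and 1 lower. Fgf8 fell. The other 4 were close to the limit of 2-fold and lost the call under several alternatives: Mixl1 (-1.09) under 6 of 14, Mesp2 (-1.07) under 8 of 13, Snai1 (1.04) under 3 of 14 and Twist1 (1.03) under 5 of 14. T was at or below 1.22 CPM in the 6 libraries (log2 fold change 1.53, standard error 0.606, adjusted p = 0.0531). Of the endoderm genes 5 of 14 were tested. Trh, the thyrotropin releasing hormone precursor, rose from 10.5, 8.61 and 7.70 to 85.2, 48.1 and 39.97 CPM (2.67) and Ctsh rose (2.47), while Sox17 and Foxa2 stayed at or below 0.305 CPM.

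Germline genes fell. DNA methylation silences a set of germ cell genes in the epiblast, and DNMT3L, an inactive partner of the DNA methyltransferases DNMT3A and DNMT3B, takes part in setting it. Of 14 tested members of the germline list 11 fell and 0 rose, against 5.24% and 7.25% of all genes, with a median log2 fold change of -1.77. Hormad1, a meiotic chromosome axis protein, had 3.65, 3.21 and 4.57 CPM and then 0.234, 0.271 and 0.184 CPM (log2 fold change -4.03, standard error 0.319, adjusted p = 4.2e-07). Taf7l, a germ cell subunit of TFIID, fell from 11.7, 13.6 and 10.6 to 1.59, 1.90 and 1.93 CPM (log2 fold change -2.73, standard error 0.167, adjusted p = 4.76e-08), Dazl, an RNA-binding protein of germ cells, from 8.32, 7.82 and 7.66 to 1.31, 1.58 and 1.10 CPM (-2.58), and Slc25a31, the testis ADP/ATP carrier, from 7.31, 6.98 and 5.87 to 1.74, 0.950 and 1.84 CPM (-2.17). Tex101, Mael, Stk31, Sycp1, Mov10l1, Brdt and Rpl10l fell as well, by log2 fold changes between -4.15 and -1.15. Brdt was not called without aEpiLC replicate 3.

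Ddx4 was lower by less than 2-fold (-0.93), and Sycp3 overlapped, with 35.5, 46.96 and 41.6 and 29.5, 38.7 and 44.9 CPM (log2 fold change -0.15, standard error 0.133, adjusted p = 0.39). In pEpiLCs Hormad1, Taf7l and Dazl were also low, at 0.287, 0.131 and 0.279, 0.862, 0.701 and 1.26 and 1.01, 0.789 and 0.792 CPM. Of the 8 methylation enzymes 1 was called: Dnmt3l itself (chromosome 10, 78041947 to 78063622) fell from 69.4, 68.2 and 79.2 to 6.24, 8.37 and 10.6 CPM (log2 fold change -3.12, standard error 0.137, adjusted p = 3.07e-09). Aire, on the other strand, overlaps it. Dnmt3a was lower by less than 2-fold (497, 541 and 592 and 283, 354 and 310.4 CPM, -0.80), and Dnmt3b overlapped (-0.10).

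Promoters of these genes are shown for the palindrome CACGTG, an E-box that MAX and its partners bind. It occurred in the same window of 10 of the 14 tested members, against 10% of the promoters of tested genes. The windows are given for 2 genes that fell, for Ddx4 and for Sycp3, which did not fall, with the E-box in capitals.
Hormad1, chr3:95559600-95559645 (plus strand): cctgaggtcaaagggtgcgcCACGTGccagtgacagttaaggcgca
Taf7l, chrX:134476514-134476559 (minus strand): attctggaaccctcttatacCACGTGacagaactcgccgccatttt
Ddx4, chr13:112652314-112652359 (minus strand): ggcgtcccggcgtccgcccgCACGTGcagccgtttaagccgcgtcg
Sycp3, chr10:88459503-88459548 (plus strand): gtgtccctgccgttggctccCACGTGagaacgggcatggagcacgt
The E-box shown begins 57, 49, 29 and 64 bases before the first annotated start, so the letters are shared by members that fell and by Sycp3. Hormad1 and Sycp3 each hold a second CACGTG, 20 and 43 bases before that start. The CArG box and CACGTG were 2 of 8 motifs searched, chosen after the values were seen, and no test was made of either.

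The Zscan4 genes mark a rare state of ESCs that resembles the 2-cell embryo, and 5 of 5 tested genes of that list fell, against 5.24% of all genes. Zscan4f was at 7.31, 5.45 and 5.31 and then 2.02, 2.03 and 1.98 CPM (-1.59). The Zscan4 copies are nearly identical, so their separate counts are uncertain. Ascl2, an imprinted transcription factor of the trophoblast, fell from 4.39, 3.44 and 4.96 to 0.657, 0.271 and 0.598 CPM (log2 fold change -3.07, standard error 0.307, adjusted p = 3.46e-06), and the imprinted growth restrictor Phlda2 from 28.5, 37.8 and 36.2 to 9.14, 10.1 and 11.6 CPM (-1.75). Of 31 tested imprinted genes 7 rose and 3 fell, against 7.25% and 5.24% of all genes, with a median log2 fold change of 0.36. Magel2 went from 7.63, 7.17 and 7.14 to 35.8, 33.4 and 31.1 CPM (2.18), its neighbour Ndn from 10.8, 10.6 and 12.4 to 30.2, 30.3 and 32.5 CPM (1.44), Nnat from 13.3, 11.3 and 12.4 to 58.2, 51.7 and 48.6 CPM (2.08) and Sgce from 1.90, 2.23 and 1.87 to 9.14, 8.86 and 10.4 CPM (2.23). Nphs1 and Kirrel2, adhesion proteins of the kidney filter that lie side by side, fell from 28.2, 38.7 and 36.7 to 2.25, 2.31 and 1.75 CPM (-4.05) and from 19.6, 25.97 and 27.6 to 1.78, 1.58 and 1.56 CPM (-3.90).

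Stress and metabolic genes moved in part against each other. ATF4 drives the integrated stress response, which raises amino acid synthesis and uptake when supply is short. Of its 20 listed genes, all tested, 5 fell and 0 rose, against 5.24% and 7.25% of all genes. At an adjusted p below 0.05, 16 were lower, against 22.6%, and the median log2 fold change was -0.77. Without aEpiLC replicate 1 only 3 fell. Nupr1 fell from 29.6, 35.98 and 32.6 to 2.49, 5.06 and 5.38 CPM (log2 fold change -2.94, standard error 0.193, adjusted p = 8.93e-08), Ddit3 (CHOP) from 18.9, 24.6 and 18.7 to 4.83, 7.87 and 8.42 CPM (log2 fold change -1.57, standard error 0.179, adjusted p = 1.18e-05) and Shmt2, the mitochondrial serine enzyme, from 320.2, 361 and 340.5 to 119.9, 164 and 155 CPM (-1.23). Trib3 fell from 91.3, 98.6 and 92.3 to 25.6, 54.3 and 43.3 CPM (-1.21), lowest in aEpiLC replicate 1 and not called without it. Asns was lower by less than 2-fold (317, 322 and 286 and 142, 194 and 209 CPM, -0.78), and Atf4 itself did not pass the test (-0.18). In the pEpiLC libraries Nupr1 and Ddit3 were at 1.25, 1.88 and 1.72 and 4.69, 6.18 and 5.73 CPM.

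Glucose transporters rose, and the enzymes of glycolysis did not. Slc2a1 (GLUT1) (chromosome 4, 119108711 to 119137983) was the most abundant gene called higher, with 218, 214 and 279.9 CPM in EpiLCs and 1438, 1396 and 1459 CPM in aEpiLCs (log2 fold change 2.58, standard error 0.092, adjusted p = 6.92e-10). In pEpiLCs it had 105, 193 and 154 CPM (log2 fold change 3.26, adjusted p = 0.00015 for aEpiLCs over pEpiLCs). Slc2a3 (GLUT3) rose from 108, 129.9 and 146 to 335, 373 and 327 CPM (log2 fold change 1.41, standard error 0.0935, adjusted p = 9.46e-08). Of 19 glycolysis genes these were the 2 called higher, 2 were called lower and 14 were lower at an adjusted p below 0.05, against 22.6% of all genes, with a median log2 fold change of -0.52. Aldoa fell from 1418, 1583 and 1716 to 550.1, 794 and 666 CPM (log2 fold change -1.25, standard error 0.108, adjusted p = 1.03e-06) and Pfkp from 79.9, 92.9 and 104 to 39.2, 57.2 and 41.3 CPM (-1.02), while Hk2 overlapped (-0.14). The call of Pfkp was lost without EpiLC replicate 3, aEpiLC replicate 1 or aEpiLC replicate 3. In pEpiLCs 3 of the 19 glycolysis genes were called lower and 0 higher, against 8.13% and 7.71% of all genes. Their median log2 fold change there was -0.53.

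Other targets of hypoxia-inducible factors, 16 tested, had 2 called lower and 0 higher, against 5.24% and 7.25% of all genes. Without EpiLC replicate 1, 4 were called lower, and without EpiLC replicate 3, 1 was called higher. Vegfa was lower by less than 2-fold (40.7, 41.98 and 35.9 and 14.8, 28.7 and 26.2 CPM, -0.78). Of the fatty acid synthesis genes 8 of 10 were lower at an adjusted p below 0.05, against 22.6% of all genes. None of 25 cholesterol genes was called, with Hmgcs1 higher by less than 2-fold (0.51). Isyna1, the enzyme that starts inositol synthesis, fell from 393, 403 and 443 to 189.98, 188 and 196 CPM (-1.12). None of 81 cytosolic ribosomal proteins was called, and their median log2 fold change was -0.17. At an adjusted p below 0.05, 41 were lower and 0 higher, against 22.6% and 24% of all genes. Rpl39l, a testis paralogue outside that set, fell from 12.8, 15.2 and 14.97 to 0.797, 1.09 and 1.56 CPM (-3.65). Of 81 tested nuclear respiratory chain genes only Ndufa4l2 was called lower (-1.64), and the call was lost with all 9 libraries in 1 fit. Of the 13 mitochondrial genes 10 were higher and 1 lower at an adjusted p below 0.05, against 24% and 22.6% of all genes, with a median log2 fold change of 0.57. Only mt-Co3 was called (1.39), and DESeq2, the fit of 9 libraries and the fit without EpiLC replicate 2, which called 2 others, did not call it.

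**Figure D4:**
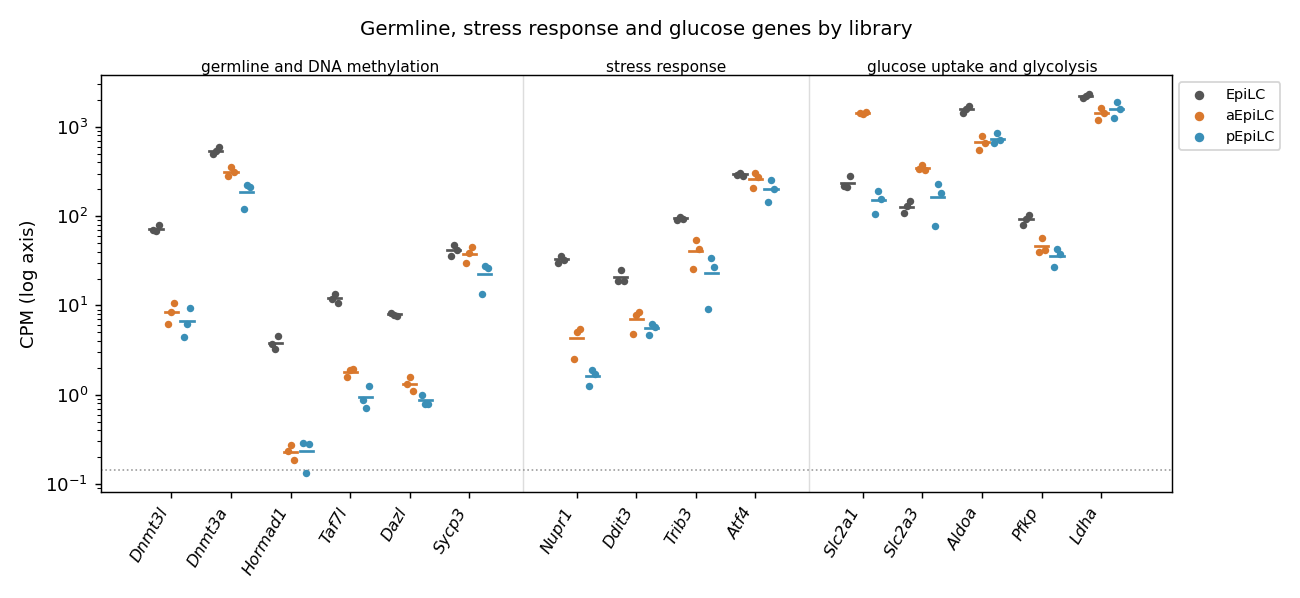
CPM on a log axis (y) of germline and DNA methylation, stress response and glucose genes (x) in each library, with a bar at the mean of 3 libraries and a dotted line at 3 counts. The aEpiLC libraries (orange) lie below the EpiLC libraries (grey) for Dnmt3l, Hormad1, Taf7l, Dazl, Nupr1 and Aldoa and above them for Slc2a1 and Slc2a3, and the groups overlap for Sycp3 and Atf4. The pEpiLC libraries (blue) are low for Hormad1, Taf7l and Dazl too, and below the EpiLC libraries for Slc2a1.

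None of 58 cell cycle genes was called in either direction, and 1 G1 gene was called lower without replicate 2 of EpiLCs or of aEpiLCs. At an adjusted p below 0.05 22 were lower and 10 higher, each by less than 2-fold, against 22.6% and 24% of all genes. Mcm2, a replication helicase subunit, had 626, 595 and 642 and 478, 517 and 466 CPM (-0.37), Mki67 had 366, 349 and 378 and 483, 529 and 416 CPM (0.37) and Ccnd1 219, 208 and 219.7 and 191, 183 and 178 CPM (-0.25). Myc fell from 52.5, 49.9 and 55.8 to 28.4, 25.4 and 21.1 CPM (log2 fold change -1.10, standard error 0.0971, adjusted p = 1.23e-06), not called without aEpiLC replicate 3, while Mycn was higher by less than 2-fold with overlapping libraries (0.24). Mxd4, a MAX partner that opposes MYC, rose from 6.75, 5.40 and 5.22 to 23.5, 22.9 and 21.5 CPM (log2 fold change 1.95, standard error 0.123, adjusted p = 5.97e-08), and Mxi1, another such partner, fell (-1.18).

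Of 19 p53 targets 3 rose and 0 fell, against 7.25% and 5.24% of all genes, and 10 were higher at an adjusted p below 0.05, against 24%. Perp went from 5.60, 6.004 and 5.53 to 31.2, 21.3 and 31.4 CPM (2.28) and Btg2 from 32.98, 27.6 and 29.6 to 65.98, 59.5 and 66.6 CPM (1.08), but Cdkn1a (p21) was higher by less than 2-fold (39.8, 37.2 and 30.8 and 45.5, 44.2 and 45.9 CPM, 0.32) and Mdm2 overlapped (-0.06). In the BCL2 family the survival gene Bcl2 rose from 3.19, 2.79 and 2.31 to 5.86, 9.95 and 7.59 CPM (1.48) and the death-promoting Pmaip1 (NOXA) fell from 143, 122 and 116 to 54.02, 68.7 and 69.3 CPM (-1.002), at the limit of 2-fold and not called without EpiLC or aEpiLC replicate 1. Bcl2l11 (BIM) was higher by less than 2-fold (0.37). FOXO factors enter the nucleus when growth factor signalling drops, and of 15 tested targets 2 rose and 1 fell, with 11 higher at an adjusted p below 0.05, against the same shares. Fbxo32 rose from 2.13, 3.68 and 2.35 to 14.2, 14.5 and 10.6 CPM (log2 fold change 2.25, standard error 0.2, adjusted p = 1.28e-06) and Sesn3 from 50.4, 52.3 and 48.4 to 139.7, 109.8 and 92.8 CPM (1.16), not called without aEpiLC replicate 1, whereas Txnip was lower by less than 2-fold (-0.66) and Trim63 fell (-1.20).

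Among lists of 8 genes each, 3 extraembryonic endoderm, 5 fibroblast, 2 trophoblast and 4 neural crest genes were tested, and the called members were Ascl2 and Dcn, both lower. Others were higher by less than 2-fold: Thy1 (8.19, 10.8 and 11.3 and 13.5, 13.5 and 17.1 CPM, 0.53) and Col1a2 (1.94, 1.44 and 1.31 and 3.33, 2.22 and 2.62 CPM, 0.78) of the fibroblast list, Ets1 (2.73, 3.58 and 2.61 and 6.52, 4.52 and 5.15 CPM, 0.84) of the neural crest list and Eomes (3.19, 2.14 and 3.22 and 5.35, 4.57 and 4.69 CPM, 0.75) of the trophoblast list. The median log2 fold change of the 5 fibroblast genes was 0.43, and 1 of 6 then tested was called higher without EpiLC replicate 1 or 2 or aEpiLC replicate 2. The part of these cells in the results was not tested. Apoa1 of the yolk sac, Col3a1 of fibroblasts and Sox9 and Tfap2a of the neural crest did not pass the filter, and the highest value of any of them in the 6 libraries was 0.563 CPM, for Col3a1. Dcn fell from 6.80, 4.75 and 7.18 to 1.31, 2.13 and 1.66 CPM (-1.89). Whether the libraries are stranded is not given in the sources used here. Without strand, reads cannot be told apart where exons overlap a gene on the other strand, which holds among the called genes described for Fgf15, Tdh, Irx3, Foxb1, Map2, Grin1, Pcsk2, Svop, Zeb2, Epha1, Kcnj3, Tagln, Krt8, Col4a1, Col4a2, Lama3, Axin2, Notch3, Dnmt3l, Nnat, Nphs1, Fstl3, Shmt2, Ndufa4l2, Slc2a1, Pfkp, Mxd4, Mxi1, Bcl2 and Fbxo32.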

How the data were processed

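RNA-seq libraries of EpiLC, aEpiLC and pEpiLC (3 each) were used. Per the labels, the authors aligned reads to GRCm38/mm10 with STAR 2.7.9a and estimated counts per gene symbol with RSEM 1.3.1, and the deposited table holds these expected counts, not normalized. They were rounded to whole numbers. Genes passing edgeR's filterByExpr were scaled by TMM and tested in the 6 EpiLC and aEpiLC libraries with the quasi-likelihood test of edgeR 4.0.16 (R 4.3.3), without a replicate term. Each pEpiLC comparison was fitted likewise on its own 6 libraries. Standard errors were derived from the log2 fold change and its F statistic. CPM used TMM factors over 9 libraries. Total counts were 20665044 to 23417917 in the EpiLC and aEpiLC libraries. On simulated counts for 15301 genes, 99.5% of 200 genes changed by 2 on the log2 scale were recovered, with 9 false calls. Positions are from GENCODE release 21 (GRCm38), in which 22803 symbols (97.2%) were found. Promoters are from RefSeq. Gene lists, members and motifs were chosen with earlier results of these data known. Genes were named by rule: the 10 largest changes in each direction among called genes whose libraries do not overlap and whose mean is at least 5 CPM, the 5 most abundant such genes in each direction, and, in each list, preset genes and up to 4 called members per direction with a mean of at least 1 CPM. Some genes this rule gives are not reported here. Other list members named were chosen after their values were seen. Alternatives were DESeq2 1.42.0, limma voom (3.58.1), other size factors, filters, a likelihood ratio test, a replicate block, all 9 libraries in 1 fit and leaving out each replicate.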

Additional observations from a re-analysis of the deposited data

Results flagged for a closer look

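For 11 of the genes described, aEpiLCs and pEpiLCs moved from EpiLCs in opposite directions, both called, and the direct comparison of aEpiLCs with pEpiLCs was called as well. They were picked out among the genes described for this pattern, so their number says nothing of how often the pattern occurs among all genes. These are differences between 2 media given for the same 24 h, and each comparison shares libraries with the others. Tdgf1-ps1, Nodal and Pmepa1 were below EpiLCs in aEpiLCs and above them in pEpiLCs. Tdgf1-ps1 is not in the Nodal list, and it may share reads with Tdgf1. The log2 fold change of aEpiLCs over pEpiLCs was -4.99, adjusted p = 9.05e-05 for Tdgf1-ps1, -2.83, adjusted p = 0.000363 for Nodal and -3.94, adjusted p = 0.000334 for Pmepa1. The FGF ligands Fgf8 (-8.14, adjusted p = 1.58e-05) and Fgf17 (-3.18, adjusted p = 0.000334) and the Wnt receptor Fzd10 (-4.45, adjusted p = 0.00162) had the same order. The reverse order, higher in aEpiLCs and lower in pEpiLCs than in EpiLCs, was found for Stmn4 (5.23, adjusted p = 0.000137), Btbd17 (4.59, adjusted p = 0.000334), Syt11 (2.82, adjusted p = 0.00235), Spon1 (4.86, adjusted p = 0.000172) and Pax6 (4.36, adjusted p = 0.00061). Pax6 stood at or under the limit of 3 counts in every pEpiLC library, so its fitted value is not a size of change. The pEpiLC replicate 1 stood apart from the other pEpiLC replicates, with 114, 43.95 and 47.7 CPM of Fzd10 in replicates 1 to 3. Without it all 11 direct comparisons kept their direction and their call, but Tdgf1-ps1 was then higher in pEpiLCs than in EpiLCs by a log2 fold change of 0.81, short of 2-fold. This alternative was chosen after seeing the data.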

How the results depend on the processing

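Of 158 called genes named by rule, 131 kept the call under every one of 14 alternatives in which they were tested, 27 lost it under at least 1 and none changed direction in aEpiLCs against EpiLCs. Tubb3, Wnt3 and T gained it. The number of genes called lower in aEpiLCs, 802, was 488 with a minimum of 10 counts in every library, a filter that tests fewer genes and drops genes that fell close to 0. Without the limit on fold change the counts were 3676 higher and 3454 lower. Leaving out each EpiLC or aEpiLC replicate gave 1069 to 1139 genes higher and 722 to 843 lower. For pEpiLCs against EpiLCs leaving out 1 replicate gave 958 to 1247 higher and 998 to 1318 lower. The direct comparison of aEpiLCs with pEpiLCs gave 334 to 759 genes higher and 180 to 419 lower, and it moved most without an aEpiLC replicate, to 396, 334 and 382 higher and 252, 180 and 201 lower without aEpiLC replicates 1, 2 and 3. The cause was not tested. Of 82 medians of lists and their parts, 19 changed sign under at least 1 alternative, among them the whole Nodal, Notch, BMP, Wnt and retinoic acid lists. Irx3 in pEpiLCs against EpiLCs had a log2 fold change of 0.59 that became -1.07 (adjusted p = 0.0337) without pEpiLC replicate 1, an alternative chosen after seeing the data. Replicate numbers did not pair the samples: deviations from the group means correlated at 0.020, -0.047 and -0.045 between same-numbered EpiLC and aEpiLC libraries. A replicate block gave 1094 genes higher and 784 lower in aEpiLCs against EpiLCs, 1099 and 1200 in pEpiLCs against EpiLCs, and 729 and 394 in aEpiLCs against pEpiLCs. Depth limits genes under about 0.141 CPM, where 3 counts or fewer were seen.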
